A study of Mus musculus with 20 samples.

Results

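The genes described here encode the subunits of the mouse proteasome: every gene on the array whose platform symbol is Psma, Psmb, Psmc, Psmd, Psme or Psmf followed by a number. The rule found 43 genes, each with 1 probe set, among 19505 genes with a symbol. They were split into an immunoproteasome class of 5 genes (Psmb8, Psmb9, Psmb10, Psme1 and Psme2) and a constitutive class of the other 38. Liver RNA from 20 mice was profiled, with 1 Affymetrix array per animal. The mice formed 4 groups of 5 biological replicates each: fed WT, fasted WT, fed Mcl1KO and fasted Mcl1KO. Fed mice had food at all times, and fasted mice spent 48 hours without food, caged singly on wire floors. Water was always available. Caging of the fed mice is not described here, and if it differed, its part cannot be told apart from that of food withdrawal. Mcl1KO mice carried Mcl1(F/F), a gene flanked by recombination sites, and received AAV-LP1-Cre. In this adeno-associated virus LP1, a promoter active in hepatocytes, drives Cre recombinase, so that deletion is aimed at hepatocytes. Whole-liver arrays do not measure the deletion by cell type. The allele and virus of the WT mice, and the age and sex of all mice, are details not given in the sources used here. Mcl1 encodes an anti-apoptotic protein of the Bcl2 family. The design asks how a fast changes hepatic transcripts and whether loss of Mcl1 alters that response.

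The proteasome degrades proteins that carry ubiquitin chains. Its barrel-shaped core is built of alpha rings, which gate entry, and beta rings, which hold the proteolytic sites. A regulatory cap binds the core: the base of the cap contains a ring of ATPases that unfold substrates, and its lid removes ubiquitin. Interferon induces 3 alternative catalytic subunits, Psmb8, Psmb9 and Psmb10, which replace Psmb5, Psmb6 and Psmb7 in newly built cores. The result is the immunoproteasome, known for producing peptides for class I antigen presentation. Psme1 and Psme2 form an interferon-inducible activator that can bind the core in place of the cap. In liver the proteasome shares protein breakdown with autophagy, which is known to supply amino acids during fasting. The transcription factor Nfe2l1 is known to raise constitutive subunit genes when proteasome activity is limiting, through antioxidant response elements in their promoters.

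The start regions of 4 genes are shown as examples from either side of the contrast described below. They are Psmb8 and Psmb9, which were lower after a fast, and Psmd9 and Psmb6, which were higher in at least 1 genotype. RefSeq promoter windows of the build GRCm38.p6, which run from 250 bases before to 50 bases after the transcript start, were matched by symbol for 36 of the 43 genes, in 39 windows. Each sequence is the 250 bases before the start, in the direction of transcription. Capitals mark a match to 1 of 3 motifs, searched on both strands: the antioxidant response element TGACNNNGC, the gamma-activated site TTCNNNGAA and the interferon-stimulated response element GAAANNGAAA. The Psmb8 sequence (chr17:34197945-34198194, plus strand) holds a gamma-activated site 97 to 89 bases before the start, and the Psmb9 sequence (chr17:34187331-34187580, minus strand) holds none of the 3 motifs. The Psmd9 sequence (chr5:123227940-123228189, plus strand) holds an antioxidant response element 31 to 23 bases before the start and an interferon-stimulated response element 159 to 150 bases before it, and the Psmb6 sequence (chr11:70525107-70525356, plus strand) holds an antioxidant response element 9 to 1 bases before the start.
Psmb8: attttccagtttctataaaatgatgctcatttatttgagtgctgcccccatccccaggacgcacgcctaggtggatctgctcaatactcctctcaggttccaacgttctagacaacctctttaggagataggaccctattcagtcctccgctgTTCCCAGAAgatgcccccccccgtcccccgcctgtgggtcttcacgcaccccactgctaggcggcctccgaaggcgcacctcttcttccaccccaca
Psmb9: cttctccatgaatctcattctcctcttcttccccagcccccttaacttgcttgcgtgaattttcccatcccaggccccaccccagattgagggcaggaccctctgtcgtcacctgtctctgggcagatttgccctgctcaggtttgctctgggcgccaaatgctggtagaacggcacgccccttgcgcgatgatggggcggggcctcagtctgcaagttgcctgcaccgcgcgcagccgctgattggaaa
Psmd9: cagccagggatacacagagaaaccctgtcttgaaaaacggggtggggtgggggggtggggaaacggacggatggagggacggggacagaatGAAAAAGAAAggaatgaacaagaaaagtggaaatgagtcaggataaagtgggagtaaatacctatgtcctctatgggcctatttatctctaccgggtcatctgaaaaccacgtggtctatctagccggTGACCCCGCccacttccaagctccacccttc
Psmb6: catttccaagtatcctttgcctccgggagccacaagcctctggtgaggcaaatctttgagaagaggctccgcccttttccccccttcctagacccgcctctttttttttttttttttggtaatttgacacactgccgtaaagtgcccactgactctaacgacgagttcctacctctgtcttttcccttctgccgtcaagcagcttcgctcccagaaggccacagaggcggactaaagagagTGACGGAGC

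Antioxidant response elements lay in 5 of 33 windows of constitutive genes (15.2%, the genes Psmb6, Psmc6, Psmd9, Psmd12 and Psme4), in 0 of 6 windows of immunoproteasome genes, and in 12.4% of all 32851 windows. Gamma-activated sites lay in 1 of 6 windows of immunoproteasome genes (Psmb8), in 1 constitutive window (Psmd2, 3.03%) and in 8.3% of all windows. Interferon-stimulated response elements lay in 1 of 6 windows of immunoproteasome genes (Psme1, at bases 10 to 19 of the transcript), in 3 constitutive windows (9.09%: Psmb3, Psmd4 and Psmd9) and in 3.44% of all windows. Psmb8, Psmd9 and Psmb6, whose sequences are shown above, are therefore in the minority of their class that holds these motifs. A match describes the letters in the window and does not show that a factor binds there.

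Array medians lay between 3.35 and 3.47 on the deposited log2 scale, and no 2 arrays held identical values. Mcl1 itself read 7.25 to 7.60 in fed WT, 7.16 to 7.41 in fasted WT, 5.83 to 6.24 in fed Mcl1KO and 5.88 to 6.50 in fasted Mcl1KO livers. The genotypes did not overlap in either feeding state. A difference is given as log2 signal with its standard error (SE) from limma and n = 5 livers per group. A gene was called, and is said to have risen or fallen, where the Benjamini-Hochberg adjusted p over all 22206 probe sets was under 0.05. Of the 43 genes, 41 had a mean above the median probe set (3.41). Psma8, a testis-specific alpha subunit, and Psmb11, a thymic beta subunit, were below it in these livers.

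A 48-hour fast moved the 2 classes in opposite directions. In WT livers all 5 immunoproteasome genes fell, by a median of 0.73 on the log2 scale, while 10 of 38 constitutive genes rose and 0 fell (0 at an unadjusted p under 0.05), with a class median of 0.21. In Mcl1KO livers all 5 immunoproteasome genes fell, by a median of 0.92, and 30 of 38 constitutive genes rose and 0 fell (again 0 unadjusted), with a class median of 0.52. Over all probe sets 3.10% rose and 3.68% fell in WT, and 8.20% rose and 6.25% fell in Mcl1KO. The median change of all probe sets was 0.01 in WT and 0.00 in Mcl1KO.

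**Figure D1:**
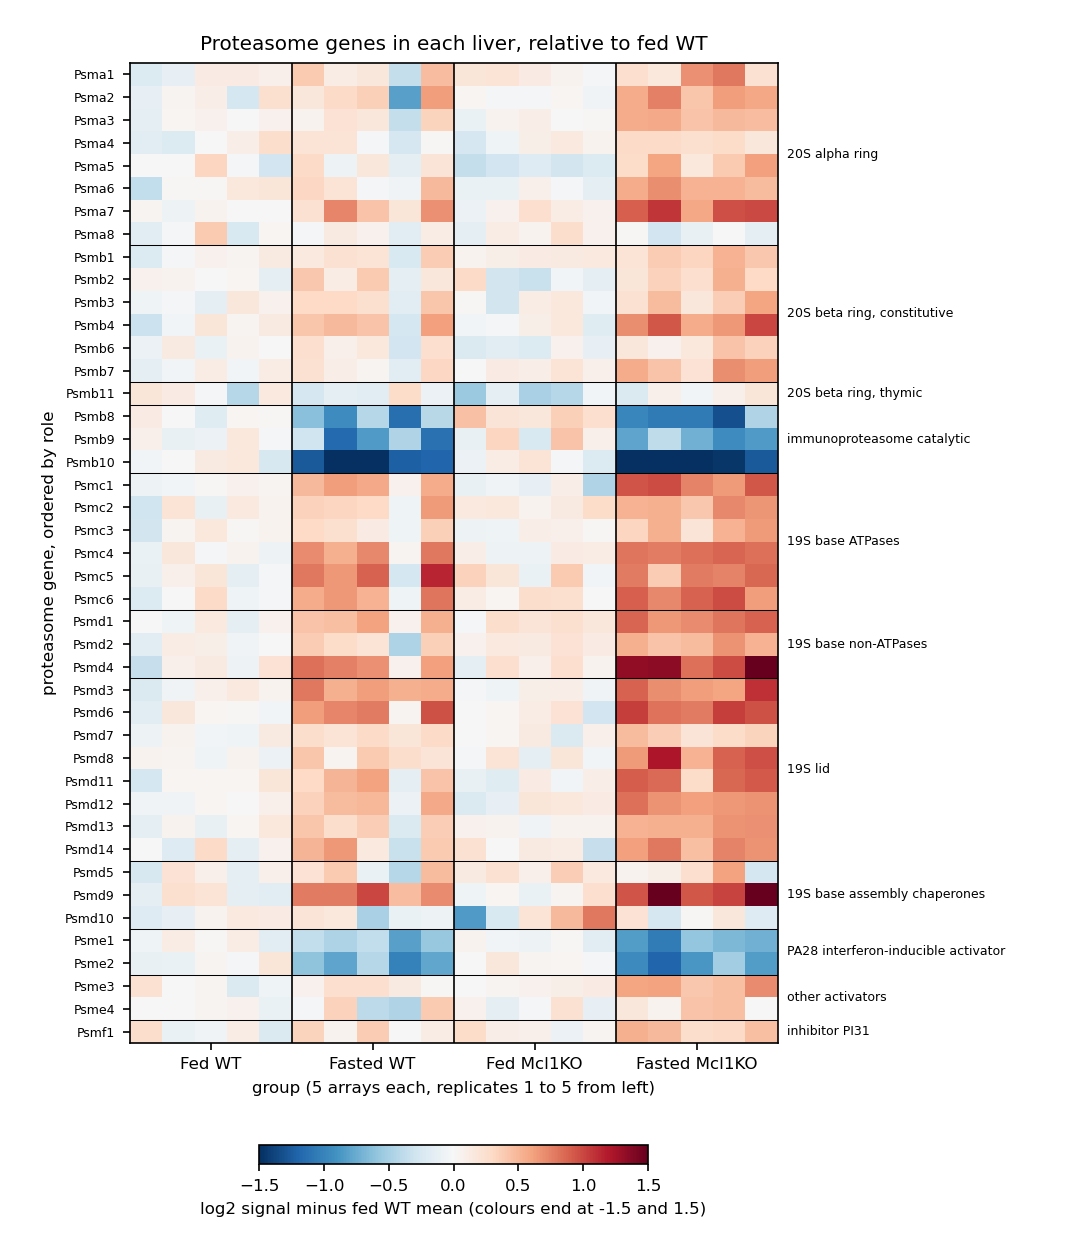
Each row is a proteasome gene, ordered by role, and each column a liver. Colour gives the log2 signal minus the gene's fed WT mean, and colours end at -1.5 and 1.5. The rows of Psmb8, Psmb9, Psmb10, Psme1 and Psme2 are blue in the fasted livers of both genotypes, while most other rows are red there, more deeply in Mcl1KO.

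Psmb10, the immunoproteasome counterpart of the trypsin-like subunit, fell most of the 5. Psmb10 read 6.09, 6.13, 6.27, 6.29 and 5.89 in the fed WT livers and 4.87, 4.56, 4.60, 4.91 and 4.95 in the fasted WT livers. Its Mcl1KO signals were 6.05, 6.24, 6.34, 6.12 and 5.93 in the fed and 4.48, 4.15, 3.88, 4.67 and 4.88 in the fasted livers. Every fasted liver was below every fed liver of its genotype. The fall was -1.36 (SE 0.15, 2.57-fold, adjusted p 1.42e-06) in WT and -1.73 (SE 0.15, 3.31-fold, adjusted p 1.95e-08) in Mcl1KO.

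Psmb8 replaces the chymotrypsin-like subunit Psmb5, which is not analysed here. Psmb8 read 6.04, 5.92, 5.74, 5.95 and 5.93 in the fed WT livers and 5.29, 4.97, 5.49, 4.79 and 5.50 in the fasted WT livers. The Mcl1KO livers gave 6.35, 6.11, 6.09, 6.27 and 6.17 in the fed and 4.94, 4.86, 4.85, 4.60 and 5.46 in the fasted livers. Fed and fasted livers were separate in both genotypes. Its log2 change was -0.71 (SE 0.14, 1.64-fold, adjusted p 0.00243) in WT and -1.26 (SE 0.14, 2.39-fold, adjusted p 1.24e-06) in Mcl1KO. Psmb9 replaces the caspase-like subunit Psmb6. Psmb9 read 5.27, 5.08, 5.11, 5.35 and 5.17 in the fed WT livers and 4.90, 4.03, 4.35, 4.74 and 4.08 in the fasted WT livers. Corresponding Mcl1KO values were 5.09, 5.52, 4.97, 5.62 and 5.27 in the fed and 4.40, 4.81, 4.48, 4.25 and 4.35 in the fasted livers. Fed and fasted livers again did not overlap, and the fasted WT values were the most spread of the 4 groups. Psmb9 changed by -0.78 (SE 0.16, 1.71-fold, adjusted p 0.00272) in WT and -0.84 (SE 0.16, 1.79-fold, adjusted p 0.000565) in Mcl1KO.

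Psme1 and Psme2 encode the alternating subunits of the interferon-inducible activator ring. Psme1 read 9.74, 9.92, 9.82, 9.91 and 9.63 in the fed WT livers and 9.43, 9.34, 9.44, 8.99 and 9.24 in the fasted WT livers. Among Mcl1KO mice, Psme1 read 9.86, 9.76, 9.73, 9.82 and 9.64 in the fed and 8.97, 8.75, 9.22, 9.13 and 9.08 in the fasted livers. The fasted values were the lower ones throughout, with a change of -0.51 (SE 0.11, 1.43-fold, adjusted p 0.00309) in WT and -0.73 (SE 0.11, 1.66-fold, adjusted p 2.87e-05) in Mcl1KO. Psme2 read 6.87, 6.89, 7.02, 6.97 and 7.17 in the fed WT livers and 6.38, 6.19, 6.56, 5.97 and 6.20 in the fasted WT livers. In Mcl1KO mice its signals were 6.99, 7.15, 7.03, 7.01 and 6.97 in the fed and 6.03, 5.80, 6.11, 6.46 and 6.15 in the fasted livers. The groups did not overlap, and the change was -0.73 (SE 0.12, 1.65-fold, adjusted p 0.000257) in WT and -0.92 (SE 0.12, 1.89-fold, adjusted p 5.92e-06) in Mcl1KO. Fed and fasted arrays therefore did not overlap for all 5 genes in both genotypes. Of all probe sets, 3.81% had every fasted array below every fed array in WT and 4.37% in Mcl1KO.

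**Figure D2:**
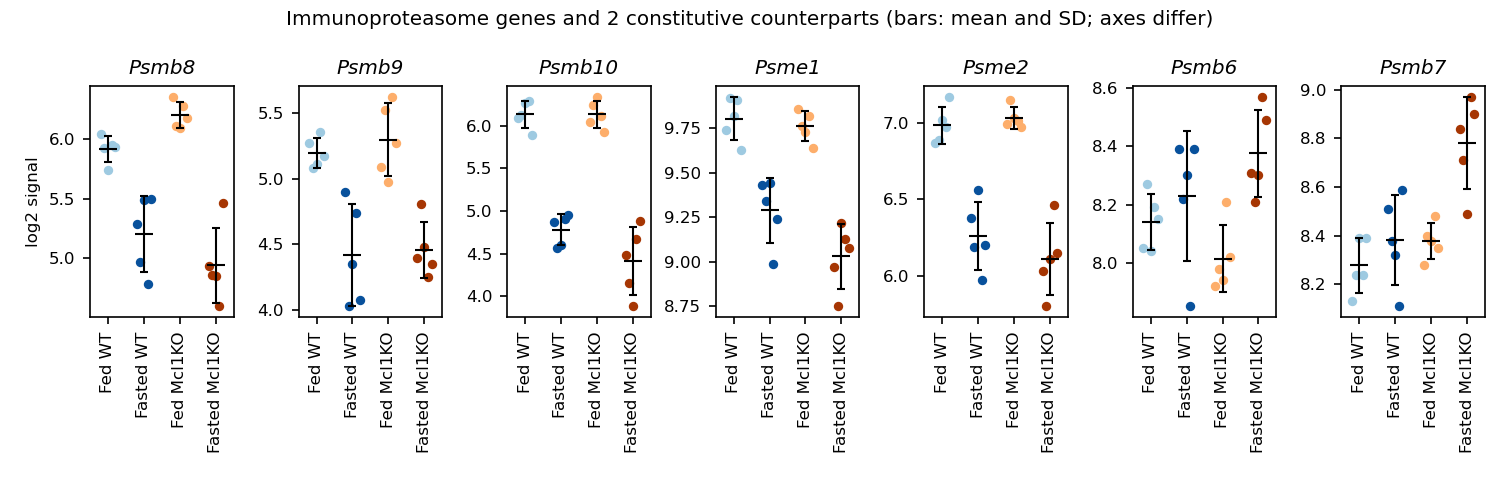
Each panel shows 1 gene, the 5 immunoproteasome genes and then Psmb6 and Psmb7, with the log2 signal of each liver as a point, group mean and SD as bars, and an axis of its own. Fasted livers lie below all fed livers of their genotype in the first 5 panels and not in the last 2.

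Neither constitutive counterpart of Psmb9 and Psmb10 was called lower. Psmb6 read 8.05, 8.27, 8.04, 8.19 and 8.15 in the fed WT livers and 8.39, 8.22, 8.30, 7.85 and 8.39 in the fasted WT livers. Among Mcl1KO mice the values of Psmb6, the caspase-like subunit, were 7.92, 7.98, 7.94, 8.21 and 8.02 in the fed and 8.31, 8.21, 8.30, 8.57 and 8.49 in the fasted livers. Its ranges overlapped in both genotypes, with a change of 0.09 in WT (adjusted p 0.759) and a rise of 0.36 in Mcl1KO (adjusted p 0.0247). Psmb7 read 8.13, 8.24, 8.39, 8.24 and 8.39 in the fed WT livers and 8.51, 8.38, 8.32, 8.11 and 8.59 in the fasted WT livers. In Mcl1KO Psmb7, the trypsin-like subunit, gave 8.28, 8.40, 8.38, 8.48 and 8.35 in the fed and 8.84, 8.71, 8.49, 8.97 and 8.90 in the fasted livers. Only the Mcl1KO groups were separate. It changed by 0.11 in WT livers (adjusted p 0.703) and 0.40 in Mcl1KO (adjusted p 0.0103).

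Whether the 2 genes of a pair responded differently was tested on their log2 difference within each liver, with a two-sided exact permutation test and adjustment over 8 tests (2 pairs in 4 comparisons). The smallest p that 5 against 5 livers allows is 0.00794. Psmb10 relative to Psmb7 fell by 1.46 in fasted WT livers, or 2.76-fold (exact p = 0.00794, adjusted 0.0159), and by 2.13 in fasted Mcl1KO livers, or 4.38-fold (exact p = 0.00794, adjusted 0.0159). All 5 fasted livers were below all 5 fed livers in each genotype. Psmb9 relative to Psmb6 fell by 1.20 in Mcl1KO, or 2.30-fold (exact p = 0.00794, adjusted 0.0159), and by 0.87 in WT, or 1.83-fold (exact p = 0.0159, adjusted 0.0254). Relative to the fed WT mean, the fasted WT values of that pair ran from -1.36 to -0.17, and the fed WT values from -0.25 to 0.16. The WT call for Psmb9 and Psmb6 was lost in 8 of 10 leave-outs of 1 liver. Between fasted Mcl1KO and fasted WT livers, Psmb10 relative to Psmb7 differed by -0.76 (exact p = 0.00794, adjusted 0.0159), with no overlap between the genotypes. The same difference was -0.11 for Psmb9 and Psmb6 (exact p = 0.73), and its sign turned, to 0.07, without fasted WT replicate 4. In fed mice the Mcl1KO minus WT differences were -0.10 for Psmb10 and Psmb7 (exact p = 0.421) and 0.23 for Psmb9 and Psmb6 (exact p = 0.0873), neither past the threshold.

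**Figure D3:**
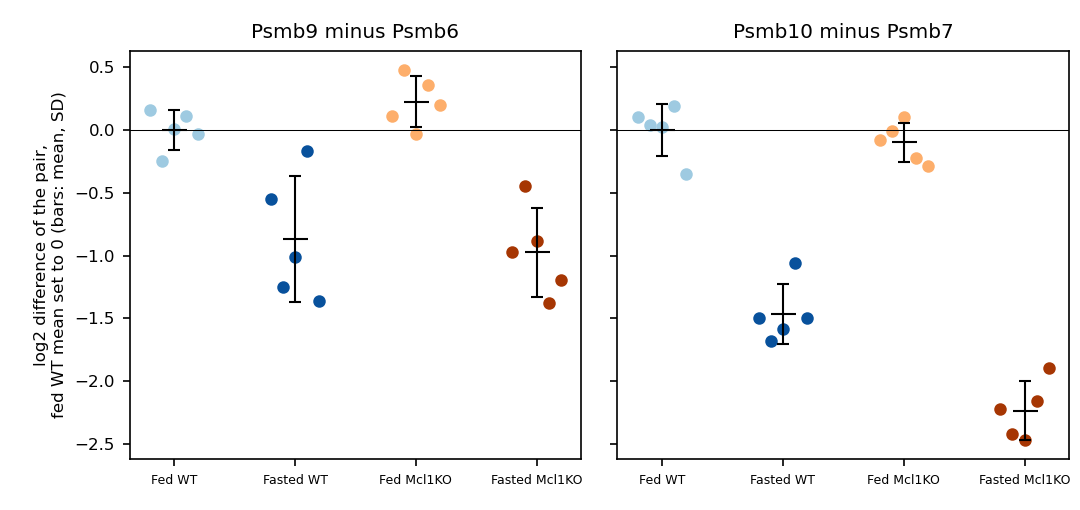
Each point is the within-liver log2 difference of an immunoproteasome subunit and the constitutive subunit it replaces, set to 0 at the fed WT mean. Fasted Mcl1KO livers sit between -2.47 and -1.89 for Psmb10 and Psmb7, below the fasted WT livers at -1.68 to -1.06.

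By count, constitutive genes rose most often in the regulatory cap. In WT, 4 of 6 ATPase genes, 2 of 3 other base genes and 2 of 8 lid genes rose, against 1 of 8 alpha ring genes and 0 of 6 beta ring genes (1 unadjusted). In Mcl1KO all 6 ATPase, all 3 other base and all 8 lid genes rose, with 5 of 8 alpha and 5 of 6 beta ring genes. Role medians in WT were 0.48 for the ATPases, 0.42 for the other base genes, 0.31 for the lid, 0.17 for the beta ring and 0.10 for the alpha ring. The Mcl1KO medians were 0.62, 0.62, 0.71, 0.39 and 0.54 in the same order. Differences between roles were not tested.

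**Figure D4:**
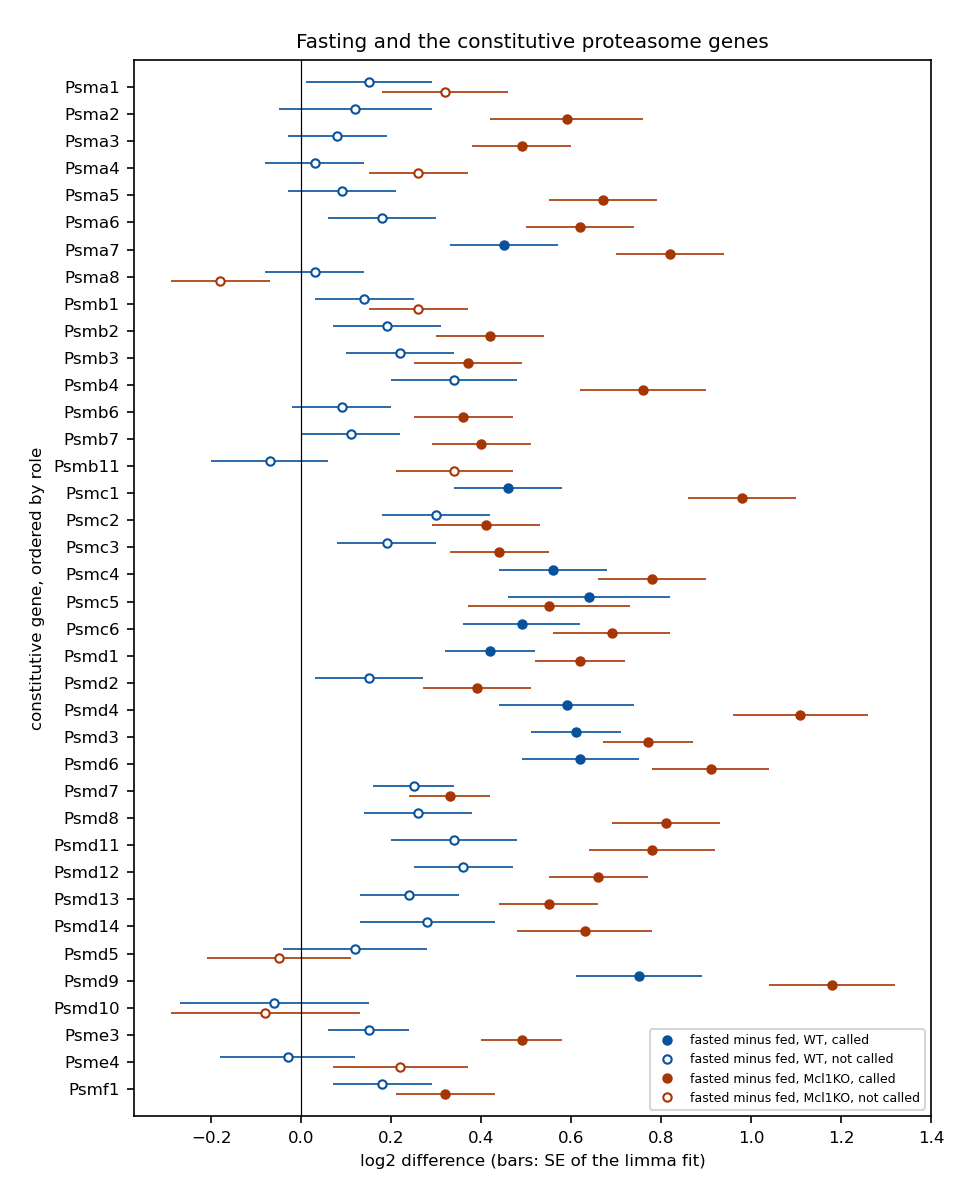
Points give the log2 change with fasting of each constitutive gene, with SE bars, in WT and in Mcl1KO. Changes range from -0.07 to 0.75 in WT and from -0.18 to 1.18 in Mcl1KO, and the cap genes make up most of the upper end.

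Among the ATPases, Psmc1 read 7.50, 7.54, 7.59, 7.64 and 7.62 in the fed WT livers and 8.06, 8.20, 8.15, 7.64 and 8.14 in the fasted WT livers. Mcl1KO livers gave 7.47, 7.52, 7.46, 7.68 and 7.13 in the fed and 8.52, 8.56, 8.32, 8.22 and 8.51 in the fasted livers. Fasted WT replicate 4 read no higher than the highest fed liver, and the Mcl1KO groups were separate. Psmc1 rose by 0.46 (SE 0.12, 1.37-fold, adjusted p 0.0147) in WT and 0.98 (SE 0.12, 1.97-fold, adjusted p 1.92e-06) in Mcl1KO. Psmc5 read 5.86, 6.05, 6.16, 5.84 and 5.96 in the fed WT livers and 6.76, 6.62, 6.86, 5.71 and 7.12 in the fasted WT livers. Its Mcl1KO values were 6.32, 6.16, 5.87, 6.37 and 5.93 in the fed and 6.75, 6.36, 6.75, 6.72 and 6.84 in the fasted livers. Fasted WT replicate 4 was below every fed WT liver, and 1 fasted Mcl1KO liver overlapped the fed range. Psmc5 nevertheless passed the test, with a rise of 0.64 in WT livers (adjusted p 0.031) and 0.55 in Mcl1KO (adjusted p 0.0416). Psmc4 rose by 0.56 and 0.78, and Psmc6 by 0.49 and 0.69, in WT and Mcl1KO. Psmc2 and Psmc3 passed the test in Mcl1KO only, at 0.41 and 0.44, with WT changes of 0.30 and 0.19.

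Psmd4, a base subunit that binds ubiquitin chains, rose in both genotypes. Psmd4 read 7.01, 7.43, 7.49, 7.28 and 7.57 in the fed WT livers and 8.18, 8.11, 8.04, 7.42 and 7.97 in the fasted WT livers. In the Mcl1KO groups it read 7.21, 7.61, 7.43, 7.61 and 7.41 in the fed and 8.69, 8.70, 8.18, 8.34 and 8.89 in the fasted livers. Replicate 4 of fasted WT was again within the fed range. The rise was 0.59 (SE 0.15, 1.50-fold, adjusted p 0.0163) in WT and 1.11 (SE 0.15, 2.15-fold, adjusted p 1.2e-05) in Mcl1KO. Psmd1, a scaffold of the base, rose by 0.42 and 0.62. Psmd2, the other scaffold, changed by 0.15 in WT (adjusted p 0.608) and rose by 0.39 in Mcl1KO.

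In the lid, Psmd6 read 6.82, 7.16, 7.01, 7.00 and 6.94 in the fed WT livers and 7.61, 7.72, 7.76, 7.03 and 7.94 in the fasted WT livers. For Mcl1KO the values were 6.98, 7.02, 7.10, 7.20 and 6.70 in the fed and 8.02, 7.80, 7.76, 8.02 and 7.94 in the fasted livers. The WT groups overlapped through fasted replicate 4, and the Mcl1KO groups did not overlap. Psmd6 rose by 0.62 (SE 0.13, 1.54-fold, adjusted p 0.00419) in WT and 0.91 (SE 0.13, 1.88-fold, adjusted p 3.47e-05) in Mcl1KO. Psmd3 read 7.35, 7.52, 7.64, 7.71 and 7.62 in the fed WT livers and 8.36, 8.10, 8.20, 8.10 and 8.13 in the fasted WT livers. Mcl1KO readings of Psmd3 were 7.54, 7.50, 7.66, 7.67 and 7.52 in the fed and 8.45, 8.27, 8.19, 8.16 and 8.66 in the fasted livers. All fasted livers were above all fed livers in both genotypes, replicate 4 of fasted WT included. The rise was 0.61 (SE 0.10, 1.53-fold, adjusted p 0.000425) in WT and 0.77 (SE 0.10, 1.70-fold, adjusted p 1.24e-05) in Mcl1KO. Psmd8 read 8.23, 8.21, 8.11, 8.23 and 8.08 in the fed WT livers and 8.59, 8.21, 8.56, 8.43 and 8.36 in the fasted WT livers. Its readings in Mcl1KO were 8.15, 8.38, 8.03, 8.35 and 8.13 in the fed and 8.81, 9.39, 8.69, 9.06 and 9.14 in the fasted livers. The WT groups overlapped and the Mcl1KO groups did not. Psmd8 changed by 0.26 in WT (adjusted p 0.254) and rose by 0.81 (SE 0.12, 1.76-fold, adjusted p 2.87e-05) in Mcl1KO. The other lid genes passed the test in Mcl1KO, by 0.33 for Psmd7, 0.78 for Psmd11, 0.66 for Psmd12, 0.55 for Psmd13 and 0.63 for Psmd14, the deubiquitinase of the lid. Their WT changes ran from 0.24 to 0.36 and did not pass the test.

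Within the core, Psma7 rose in both genotypes. Psma7 read 7.36, 7.24, 7.37, 7.32 and 7.32 in the fed WT livers and 7.55, 8.06, 7.75, 7.50 and 8.01 in the fasted WT livers. The readings in Mcl1KO were 7.23, 7.39, 7.57, 7.43 and 7.39 in the fed and 8.22, 8.39, 7.90, 8.29 and 8.31 in the fasted livers. No fed liver reached its fasted group in either genotype. The rise was 0.45 (SE 0.12, 1.37-fold, adjusted p 0.0175) in WT and 0.82 (SE 0.12, 1.77-fold, adjusted p 1.9e-05) in Mcl1KO. Psma3 read 8.09, 8.27, 8.30, 8.23 and 8.30 in the fed WT livers and 8.29, 8.45, 8.41, 7.88 and 8.57 in the fasted WT livers. Mcl1KO mice gave 8.14, 8.29, 8.34, 8.23 and 8.26 in the fed and 8.80, 8.81, 8.67, 8.73 and 8.70 in the fasted livers. The WT ranges overlapped, while Mcl1KO ranges were separate. Psma3 changed by 0.08 in WT (adjusted p 0.797) and rose by 0.49 in Mcl1KO (adjusted p 0.00201). In Mcl1KO, Psma2 rose by 0.59, Psma5 by 0.67 and Psma6 by 0.62, with WT changes of 0.12, 0.09 and 0.18. Psma1 and Psma4 changed by 0.32 and 0.26 in Mcl1KO and were not called. Of the structural beta subunits, Psmb4 rose by 0.76, Psmb2 by 0.42 and Psmb3 by 0.37 in Mcl1KO, and Psmb1 changed by 0.26 (adjusted p 0.121). Neither dim gene was called: Psma8 changed by 0.03 in WT and -0.18 in Mcl1KO, and Psmb11 by -0.07 and 0.34.

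Psmd9, a chaperone for assembly of the base that is not part of the mature particle, had the largest rise with fasting of the 43 genes in both genotypes. Psmd9 read 5.53, 5.90, 5.87, 5.51 and 5.49 in the fed WT livers and 6.44, 6.44, 6.66, 6.12 and 6.37 in the fasted WT livers. Its signals in Mcl1KO were 5.60, 5.69, 5.56, 5.70 and 5.91 in the fed and 6.60, 7.16, 6.59, 6.67 and 7.35 in the fasted livers. All fasted livers were above all fed livers of their genotype. The rise was 0.75 (SE 0.14, 1.68-fold, adjusted p 0.00154) in WT and 1.18 (SE 0.14, 2.27-fold, adjusted p 2.76e-06) in Mcl1KO. The other chaperones of the base did not follow: Psmd5 changed by 0.12 in WT and -0.05 in Mcl1KO, and Psmd10 by -0.06 and -0.08. Psme3, a nuclear activator related to Psme1 and Psme2, moved the other way from them in Mcl1KO. Psme3 read 7.40, 7.18, 7.21, 6.95 and 7.11 in the fed WT livers and 7.24, 7.42, 7.42, 7.31 and 7.19 in the fasted WT livers. Mcl1KO signals of Psme3 were 7.18, 7.21, 7.23, 7.26 and 7.29 in the fed and 7.76, 7.77, 7.58, 7.62 and 7.88 in the fasted livers. The WT groups overlapped, and the Mcl1KO groups did not. Psme3 changed by 0.15 in WT (adjusted p 0.482) and rose by 0.49 in Mcl1KO (adjusted p 0.000708). Psme4, another nuclear activator, changed by -0.03 and 0.22 and was not called. Psmf1, named as a proteasome inhibitor, rose by 0.32 in Mcl1KO at an adjusted p of 0.0499, beside 0.18 in WT.

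Counted by liver, every fasted array was above every fed array for 4 of the 38 constitutive genes in WT (Psma7, Psmd3, Psmd7 and Psmd9) and for 28 in Mcl1KO, beside 3.54% and 5.88% of all probe sets. One fasted WT liver, replicate 4, stood apart. Its median over the constitutive genes was -0.11 relative to the fed WT means, and the other 4 fasted WT livers lay between 0.28 and 0.41. The fasted Mcl1KO livers lay between 0.43 and 0.63, and the fed livers between -0.13 and 0.11. For the immunoproteasome genes the same liver read -1.01, the lowest of the fasted WT livers (-1.01 to -0.43), and below all 10 fed livers (-0.05 to 0.17). Without it, 15 constitutive genes rose with fasting in WT and the class median was 0.29, and all 5 immunoproteasome genes still fell. In WT the calls of Psma7, Psmc5, Psmc6, Psmd1 and Psmd4 were each lost when some 1 liver was left out, most often for Psmc5 (in 8 of 17 alternatives, highest adjusted p 0.103) and Psmc6 (in 6 of 17, highest 0.0737). In Mcl1KO this held for Psma2, Psmb2, Psmb3, Psmb6, Psmc5, Psmd2 and Psmf1, most often for Psmf1 (in 10 of 17, highest adjusted p 0.127). Every other constitutive call with fasting held under each leave-out.

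**Figure D5:**
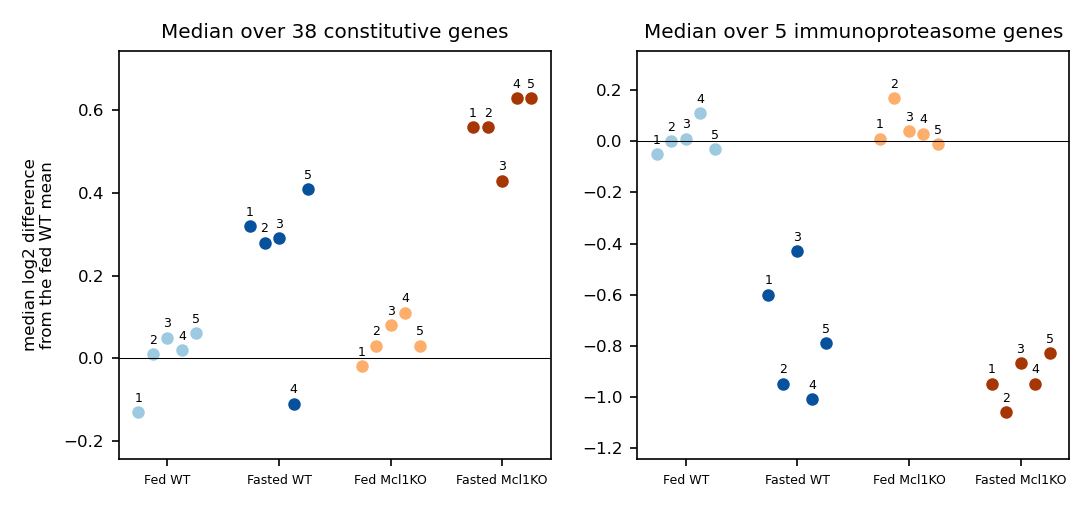
Each point is a liver, placed at its median over the genes of a class of log2 signal minus the fed WT mean. Fasted livers lie above 0 for the constitutive class, except fasted WT replicate 4 at -0.11, and between -1.06 and -0.43 for the immunoproteasome class.

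Deletion of Mcl1 left no proteasome gene past the test in fed livers. The constitutive median was 0.03 and the immunoproteasome median 0.05, with 0 called in either class, 2 constitutive genes lower at an unadjusted p under 0.05 (Psma5 and Psmb11) and 0.0360% of all probe sets called. Psmb8 was higher in all 5 fed Mcl1KO livers than in any fed WT liver, by 0.28, at an adjusted p of 0.814. It was the 1 gene of the 43 without overlap in that comparison, beside 0.806% of all probe sets higher and 0.766% lower without overlap. Psmd4, Psmb4 and Psma5 lie on chromosome 3 with Mcl1, 24, 29 and 160 measured genes away in RefSeq order, and differed by 0.10, 0.01 and -0.26 in fed livers. In fasted livers they differed by 0.62, 0.43 and 0.32, and of these only Psmd4 was called. The part of their place beside Mcl1 was not tested.

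In fasted livers, 7 constitutive genes were higher in Mcl1KO than in WT and 0 were lower (0 unadjusted), with 37 of 38 above 0 and a median of 0.31. Of all probe sets 3.32% were higher and 1.67% lower, and their median was -0.02. The 7 genes were Psmd4 at 0.62 (adjusted p 0.0197), Psmd8 at 0.59 (adjusted p 0.00572), Psma7 at 0.45, Psma3 at 0.42, Psme3 at 0.41, Psmb7 at 0.40 and Psmd1 at 0.37. None of the 5 immunoproteasome genes was called, with 2 lower at an unadjusted p under 0.05 and a median of -0.26. The differences were -0.37 for Psmb10, -0.27 for Psmb8, -0.26 for Psme1, -0.15 for Psme2 and 0.04 for Psmb9. The count of 7 rested on single livers: it was 2 without fasted WT replicate 4 (median 0.19), 2 without fasted Mcl1KO replicate 1 or replicate 2, 3 without fasted Mcl1KO replicate 5 and 11 without fasted Mcl1KO replicate 3. It was 1 when only the 2 fasted groups entered the fit. The interaction asks directly whether fasting acted differently in the genotypes. It called 0 of the 43 genes, beside 0.135% of all probe sets. In simulated data the interaction found 3.75% of changes of 0.5 and 63.7% of changes of 1. The constitutive interactions ran from -0.20 to 0.58, so 0 calls do not show that fasting acted alike in the genotypes. At an unadjusted p under 0.05 the interaction had 12 constitutive genes higher and 1 immunoproteasome gene lower. The share of all probe sets at that unadjusted level was not counted, here or for the other unadjusted counts. Those counts are therefore not read as results. The constitutive median of the interaction was 0.26 (0.17 without fasted WT replicate 4) and the immunoproteasome median -0.22. The larger number of calls in Mcl1KO is therefore not shown to be a difference between genotypes for any single gene.

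Of 12 assembly and associated factors measured, 0 were called with fasting in WT (1 higher and 2 lower unadjusted; median 0.06). In Mcl1KO 2 rose (median 0.16): Txnl1, a thioredoxin-like protein bound to the cap, by 0.53, and Akirin2, which is known to bring proteasomes into the nucleus, by 0.32. In WT Txnl1 changed by 0.13 (adjusted p 0.651). Akirin2 was lower in every fasted than in every fed WT liver, at -0.25 (adjusted p 0.0858), and its interaction was 0.57 (adjusted p 0.0543). Pomp, the maturation factor of the core, changed by -0.02 and -0.13. Of 10 genes of the Nfe2l1 pathway, 2 rose in WT and 2 in Mcl1KO, with medians of 0.06 and -0.02 and 5 of 10 below 0 in each genotype. Ufd1, an adaptor of the Vcp segregase, rose in both, by 0.46 and 0.70. Syvn1, a ubiquitin ligase of the endoplasmic reticulum, rose by 0.45 in WT and changed by -0.20 in Mcl1KO (adjusted p 0.339), with an interaction of -0.65 (adjusted p 0.101). Nploc4, the partner of Ufd1, changed by 0.28 in WT (adjusted p 0.163) and rose by 0.42 in Mcl1KO. The Nfe2l1 transcript changed by -0.06 in WT (adjusted p 0.926) and -0.32 in Mcl1KO (adjusted p 0.269). Among 6 genes of ubiquitin supply and delivery, 2 rose in WT and 3 in Mcl1KO. Ubqln2, a shuttle receptor, rose in both, by 0.59 and 0.44. Bag6 rose by 0.48 in WT and changed by 0.26 in Mcl1KO. Rad23b and Zfand5 rose by 0.53 and 0.43 in Mcl1KO and changed by 0.28 and 0.24 in WT.

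Genes that share interferon control or function with the immunoproteasome fell with it in part. Of 10 genes of class I antigen presentation, 3 fell and 0 rose in WT (1 higher unadjusted): Tap1, a peptide transporter subunit, by 0.55, and the heavy chains H2-D1 by 0.38 and H2-K1 by 0.30. In Mcl1KO 5 fell and 0 rose (0 unadjusted), led by Irf1, an interferon-responsive transcription factor, at -0.95, Tap1 at -0.50 and Tapbp at -0.41. There H2-D1 and H2-K1 changed by -0.14 (adjusted p 0.417) and -0.17 (adjusted p 0.265) and were not called. Between fasted Mcl1KO and fasted WT livers H2-D1 was higher by 0.33 (adjusted p 0.0418). It was the 1 called gene of the list in that comparison, and 7 of the 10 were below 0. The list medians with fasting were -0.15 in WT and -0.28 in Mcl1KO. Of 11 type I interferon targets, 5 fell in WT and 7 in Mcl1KO, and 0 rose in either (0 unadjusted), with medians of -0.50 and -0.79. Of these genes, 7 had means below the median probe set. Bst2 fell by 1.23 and 1.79, Irf7 by 1.38 and 1.55, and Ifit3 by 1.44 and 1.43. On chromosome 17 the RefSeq order is Psmb9, Tap1, Psmb8, Tap2. In that cluster Psmb9, Tap1 and Psmb8 fell in both genotypes, and Tap2 changed by 0.07 in WT (adjusted p 0.903) and -0.39 in Mcl1KO (adjusted p 0.163). Psme1 and Psme2 are likewise close on chromosome 14, with only Emc9 between them.

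Immunoproteasome genes are known to be high in immune cells, so markers of other liver cells were read beside them. In whole liver, fewer cells of a type and less RNA per cell cannot be told apart. Summed as the mean log2 signal of 10 Kupffer cell markers, livers ran from 5.31 to 5.79 in fed WT and 4.81 to 5.13 in fasted WT, with 3 of 10 markers lower and 0 higher (0 unadjusted). In Mcl1KO the same mean ran from 5.48 to 5.84 in fed and 5.22 to 5.94 in fasted livers, with 1 marker higher and 1 lower. In WT the immunoproteasome median was -0.73, beside a Kupffer marker median of -0.48 with 10 of 10 markers below 0. In Mcl1KO these medians were -0.92 and -0.06, with 5 of 10 Kupffer markers below 0. The 8 infiltrating myeloid markers averaged 3.11 to 3.46 in fed WT and 2.78 to 2.95 in fasted WT livers. In Mcl1KO they averaged 3.15 to 3.44 in fed and 2.95 to 3.28 in fasted livers. Of these 8 markers, 6 were below the median probe set. Only Lyz2 was called with fasting, lower in both genotypes (1 and 2 lower unadjusted). The list median was -0.25 in WT and -0.06 in Mcl1KO, with 7 and 5 of the 8 below 0. The 10 lymphocyte markers averaged 2.57 to 2.90 over all livers, 9 of the 10 were below the median probe set, and 0 were called with fasting (0 unadjusted in WT, 2 lower in Mcl1KO). The 8 hepatocyte markers averaged 11.42 to 11.47 in fed WT, 11.51 to 11.58 in fasted WT, 11.40 to 11.47 in fed Mcl1KO and 11.49 to 11.54 in fasted Mcl1KO livers. These averages were higher in fasted than in fed livers of both genotypes, but the median change of the 8 markers was 0.01 in each. Cps1 changed most, by 0.47 in WT and 0.54 in Mcl1KO, while 4 and 3 of the 8 markers were below 0. With fasting, 1 hepatocyte marker rose in WT, and 2 rose and 1 fell in Mcl1KO. The 6 endothelial markers averaged 5.72 to 5.99 in fed WT, 5.51 to 6.05 in fasted WT, 5.23 to 5.79 in fed Mcl1KO and 5.83 to 6.46 in fasted Mcl1KO livers, without overlap between fed and fasted in Mcl1KO. Of them 1 rose and 1 fell in WT and 2 rose in Mcl1KO. Lyve1 changed most, by 1.79 and 2.24, beside list medians of -0.36 in WT and 0.38 in Mcl1KO, with 4 and 1 of the 6 markers below 0. Of 5 stellate cell markers 0 were called in WT (1 lower unadjusted) and 1 rose and 1 fell in Mcl1KO, and of 4 cholangiocyte markers 0 were called in either (2 and 1 higher unadjusted). Comparing fasted Mcl1KO with fasted WT, 4 of 10 Kupffer markers were higher and 0 lower (0 unadjusted), led by Vsig4 at 1.22 (adjusted p 0.000146). In the same comparison Lyz2 was higher by 0.95 (adjusted p 0.0135) and the stellate marker Dcn by 0.76 (adjusted p 0.00174). Each was the 1 called gene of its list. The infiltrating myeloid median was 0.08 with 2 of 8 below 0, and the stellate median 0.13 with 2 of 5 below 0. All 6 endothelial markers were above 0, with a median of 0.37 and 0 called (3 higher unadjusted). The interaction called Vsig4 alone of the markers, at 1.26 (adjusted p 0.022). No marker list had a called gene between fed Mcl1KO and fed WT livers. The part of these cells in the immunoproteasome and constitutive changes was not tested.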

How the data were processed

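The deposited values of 20 arrays are signals that the authors normalised with RMA, which gives log2 values, in Partek 7.0, as named in the submitters' processing notes. The unit is taken as log2. The log base and the RMA settings are points not given in the sources used here, and values run from 1.34 to 12.56. RMA's quantile step hides a shift shared by most transcripts. Per the labels' protocols, total RNA was extracted with Trizol and cDNA made with the GeneChip WT PLUS kit. Symbols came from the platform annotation: 19572 of 22206 probe sets had 1 symbol and 2634 had none. Psmb5 is not analysed here, so 2 of 3 planned catalytic pairs were tested and adjusted over 8 tests. Of 117 symbols on the other lists, 100 were measured. limma 3.58.1 in R 4.3.3 fitted 1 mean per group to all 20 arrays, with eBayes (prior df 6.95) and Benjamini-Hochberg adjustment. The fit was tested on simulated data. Exact tests used scipy 1.17.1. Values by liver are given for the immunoproteasome genes, their counterparts, and up to 5 called constitutive genes with the largest change per comparison and direction. Of other lists up to 3 called genes are named, with genes named beside them whose values were known. Members and lists were chosen with earlier results of these data known. Alternatives were other scalings, moderation, weights, filters, arrays in the fit, a replicate block and leaving out each array. Precision is limited by 5 arrays per group.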

Additional observations from a re-analysis of the deposited data

Results flagged for a closer look

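Values by liver of 17 genes in 4 groups, 68 sets of 5, were checked for a liver far from its group by Dixon's ratio, which chance exceeds in about 1 of 20 sets. It marked 3. Fasted WT replicate 4 was low for 2 cap genes: Psmc1 read 7.64 there and 8.06 to 8.20 in the other 4 livers, and Psmd4 read 7.42 beside 7.97 to 8.18. Fasted Mcl1KO replicate 2 read 6.36 for Psmc5 beside 6.72 to 6.84 in the others.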

How the results depend on the processing

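All 57 calls of single proteasome genes kept their direction in the 969 values recomputed under the alternatives. All 10 immunoproteasome calls held in every one. Over both classes, 10 of 15 calls for fasting in WT and 27 of 35 for fasting in Mcl1KO held in every one. The fasting calls lost were all of constitutive genes: 5 of 10 in WT and 8 of 30 in Mcl1KO. For Mcl1KO in fasted livers 1 of 7 held (Psmd8). The count of constitutive genes higher in fasted Mcl1KO than in fasted WT, 7, was 11 without dim probe sets, 11 with trend and robust moderation, 1 with only the groups compared, and 2 to 11 leaving out 1 array. The cause was not tested. Leaving out 1 array gave 7 to 15 constitutive genes higher with fasting in WT, 25 to 29 in Mcl1KO, and 0 to 1 for the interaction. That 1 gene was Psmd8 without fasted Mcl1KO replicate 3, at 0.64 (limma adjusted p 0.0478). For Psmb9 relative to Psmb6, leaving out 1 array gave -1.04 to -0.74 for fasting in WT, with fewer arrangements to test against and the call lost in 8 of 10. It gave 0.16 to 0.29 for Mcl1KO in fed livers, called without fed Mcl1KO replicate 3. For Mcl1KO in fasted livers it gave -0.24 to 0.07, and the sign turned, to 0.07, without fasted WT replicate 4. With the replicate block, 10 constitutive genes rose with fasting in WT, and no count moved by over 1.5 times. Same-numbered arrays correlated above 0.1 in 1 of 30 pairs (-0.19 to 0.166), with a median of -0.0222 beside 0.00375 for other numbers. This gave no sign that the numbers pair samples, but a weak shared factor could escape it. Averaging probe sets of a gene was not run, since each had 1. RMA signals of dim genes such as Psma8 and Psmb11 limit what their changes show.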

Other observations

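Psme2b, a close copy of Psme2 outside the naming rule, has its own probe set. It read 5.71 to 5.95 in fed WT and 4.70 to 5.09 in fasted WT livers, and 5.42 to 5.61 in fed and 4.72 to 5.17 in fasted Mcl1KO livers. It fell by 0.88 in WT (limma adjusted p 3.49e-06) and by 0.62 in Mcl1KO (adjusted p 0.000116). It was chosen after its values were seen, and signal shared between the 2 probe sets was not tested.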
